A study of Oncorhynchus mykiss with 6 samples.

Results

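SR proteins are splicing factors that carry an RNA recognition motif and a domain rich in arginine and serine (the RS domain). Bound to exons, they help to recruit the U1 and U2 particles of the spliceosome, and kinases of the SRPK and CLK families control their location and activity by phosphorylating the RS domain. In mammals many of them hold their own mRNA level in check by splicing in an exon that marks the message for nonsense-mediated decay, and mouse hepatocytes need SRSF3 to mature and to express their metabolic genes.

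The rows described here are those of the deposited gene table of rainbow trout liver (Oncorhynchus mykiss) whose symbol starts with srsf, whatever the case of the letters. There are 11 of them among 5045 listed genes. They comprise SRSF2 with 2 copies, SRSF3 with 2 copies and srsf3b, SRSF5 with 3 copies and srsf5a, and a pair for SRSF7 whose symbols differ only in case, Srsf7 and SRSF7. SRSF5, which was first described in rat as an insulin-induced gene of regenerating liver, is therefore the symbol with the most rows. Copies that share a symbol were numbered by their mean level in the control group, as a name only. The KEGG orthology identifiers in the table match the symbols, with K12891 for the SRSF2 rows, K12892 for SRSF3 and srsf3b, K12896 for the SRSF7 pair, and K12893, an entry shared by SRSF4, SRSF5 and SRSF6, for the SRSF5 rows.

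Total RNA of liver was sequenced in 3 control libraries held at 18 °C and 3 heat libraries held at 24 °C for 8 h. The labels give no strain, age or number of fish, no time for the controls, and word both treatments as given to the liver, so whether each library is a separate fish is unknown and p-values measure only the spread between these libraries. The table lists only genes that its authors called changed, with a log2 fold change of at least 1 in size and an adjusted p under 0.05. Every srsf row was thus selected as changed before any test here, its p-value is a description, and SR genes outside the list were not analysed here.

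Read counts over all listed genes came to 1409460 to 1421082 in the control libraries and 2663575 to 3586127 in the heat libraries, while the recovered library totals, relative to control replicate 1, spanned 0.999 to 1.02 in control and 1.14 to 1.55 in heat. Of the 6 listed hepatocyte markers 5 rose and 1 fell, and their summed level was 8749 to 9267 FPKM (fragments scaled to gene length and library total) in control and 11030 to 11340 FPKM in heat. A haptoglobin (HP) row was the most abundant over all libraries, with 2298 FPKM in control and 6491 FPKM in heat. In control the most abundant was rbp4, the 1 that fell, from 5950 to 1998 FPKM. Of the 4 listed pancreas markers, the 2 tested rose, and the list summed to 7.33 to 8.76 FPKM in control and 34.5 to 37.5 FPKM in heat, led by gcg2, up 3.98-fold. Of the 7 listed myeloid rows 6 were tested, of which 5 rose and 1 fell, and their sum was 1.07 to 1.32 FPKM in control and 9.29 to 11.9 FPKM in heat, led by a Cd163 row. All 5 listed stroma and endothelium rows fell, from a sum of 23.7 to 26.0 FPKM in control to one of 9.39 to 9.90 FPKM in heat, led by col1a1b, down 2.48-fold. The single row in the erythrocyte list, tfr1a, was not among the markers planned for that list, and it fell 2.26-fold. No haemoglobin row was listed. Of 2 lymphocyte rows IL7R rose 3.06-fold, while ZAP70, not tested, was lower in heat, at 0.404 FPKM in control and 0.108 FPKM in heat. Among all tested genes of this table of changed genes, 58.1% rose and 41.9% fell. Counts by direction in such short marker lists therefore say little about cell types. No marker row had 0 counts when summed over the control libraries. Several were near the floor there, such as the 2 ins rows, at 0.0403 and 0.0413 FPKM, and a Cd163 row, at 0.0117 FPKM. The lowest count of each of these rows in any library was 0. The part of these cell types in the srsf results was not tested, and in whole liver fewer cells of a type and less RNA per cell cannot be told apart.

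Of the 11 srsf rows, 10 fell and 1 rose in heat (limma-voom, Benjamini-Hochberg adjusted p under 0.05 over all 4766 tested genes). Among all tested genes, 41.9% fell and 58.1% rose by the same rule. Their median log2 fold change was -1.95, against 1.13 over all tested genes. Falls of at least 4-fold were seen in 5 of the 11 rows, against 9.02% of all tested genes. The FPKM values of the groups did not overlap for any of the 11 rows, which says little in this list, where 99.5% of the tested genes also had groups that did not overlap. All 11 rows passed the count filter, and the lowest count of any row in any library was 14.

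**Figure D1:**
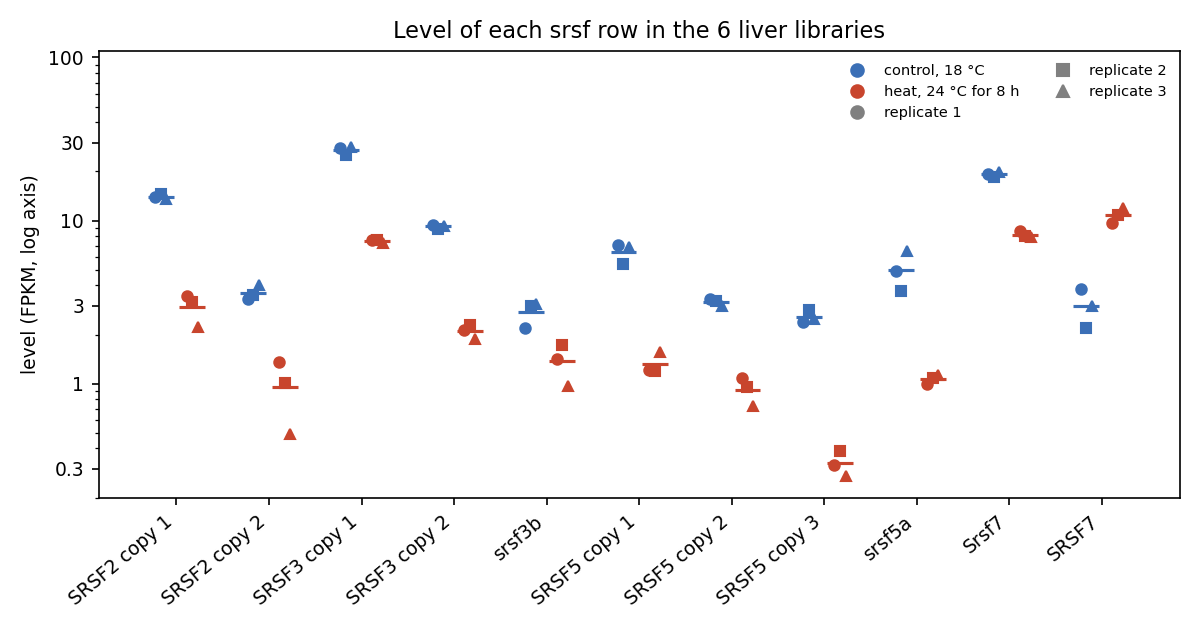
Level of each srsf row in FPKM on a log axis, with 1 point per library (blue, control; red, heat; the marker shape gives the replicate) and a line at each group mean. In 10 rows all heat points lie below all control points, and in the SRSF7 row they lie above.

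SRSF3 and SRSF7 are small SR proteins that, in mammals, shuttle out of the nucleus and link splicing to mRNA export through the carrier NXF1. SRSF3 copy 1 was the most abundant srsf row in control liver, at 28.1, 25.3 and 28.1 FPKM, and stood at 7.64, 7.65 and 7.26 FPKM in heat. The groups lay far apart, with the lowest control library 3.30-fold above the highest heat library. The fall was 3.596-fold, a log2 fold change of -1.85 ± 0.12 (SE, n = 3 per group, limma-voom adjusted p = 1.7e-19).

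SRSF3 copy 2 had 9.39, 8.91 and 9.32 FPKM in control and 2.12, 2.29 and 1.86 FPKM in heat. It fell 4.36-fold, a log2 fold change of -2.12 ± 0.19 (SE). The row srsf3b was lower and more scattered, at 2.19, 2.98 and 3.06 FPKM in control against 1.41, 1.73 and 0.965 FPKM in heat. Its groups came close to each other, with the lowest control value 1.26-fold above the highest heat value. Its log2 fold change of -1.01 ± 0.27 (SE, limma-voom adjusted p = 0.000627) was the smallest in size among the srsf rows, and in the authors' deposited table its log2 fold change, -1.00176, lay just inside their threshold of 1.

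With all 3 rows summed, the SRSF3 level was 39.1 ± 1.74 FPKM in control and 11.0 ± 0.809 FPKM in heat (SD, n = 3 per group). The heat level was 28.1% of the control level. Within that sum, srsf3b rose in share from 7.03% ± 1.32 to 12.3% ± 2.65 and SRSF3 copy 2 declined in share from 23.6% ± 0.506 to 19.0% ± 0.589 (SD, n = 3). The groups did not overlap for either share (exact permutation test, two-sided, p = 0.1 for each, the smallest that 3 against 3 libraries allow). A further listed row, sfrs3, carries the older name of the gene and the same orthology identifier but is not chosen by the symbol rule. It stood at 10.2, 9.44 and 8.24 FPKM in control and at 1.59, 3.40 and 2.88 FPKM in heat, a 3.93-fold fall.

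SRSF2, known in mammals as an SR protein that stays in the nucleus and acts on both splicing and transcription elongation, fell in both copies. SRSF2 copy 1 had 13.9, 14.5 and 13.6 FPKM in control and 3.44, 3.17 and 2.22 FPKM in heat. All 3 heat libraries were low and replicate 3 was the lowest, and the fall was 4.72-fold, a log2 fold change of -2.24 ± 0.15 (SE, limma-voom adjusted p = 4.23e-19). SRSF2 copy 2 had 3.30, 3.51 and 4.003 FPKM in control and 1.35, 1.01 and 0.491 FPKM in heat, with only 54, 30 and 14 counts behind the heat values. It fell 3.87-fold, a log2 fold change of -1.95 ± 0.27 (SE). Heat replicate 3 was again the lowest, and the heat libraries of this copy were spread more widely, for their level, than its control libraries. The summed SRSF2 level was 17.6 ± 0.369 FPKM in control and 3.89 ± 1.07 FPKM in heat (SD, n = 3), so the heat level was 22.1% of control.

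All 4 SRSF5 rows fell, and they included the largest fall of any srsf row. SRSF5 copy 3 had 2.40, 2.82 and 2.51 FPKM in control and 0.317, 0.385 and 0.271 FPKM in heat, from 24, 22 and 15 counts. Its heat libraries were uniformly low. The fall was 7.83-fold, a log2 fold change of -2.97 ± 0.28 (SE, limma-voom adjusted p = 1.53e-13), which ranked 92 among the 4766 tested genes counted from the largest fall.

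SRSF5 copy 1, the most abundant SRSF5 row, had 7.06, 5.43 and 6.86 FPKM in control and 1.21, 1.202 and 1.57 FPKM in heat, a 4.88-fold fall. SRSF5 copy 2 had 3.29, 3.19 and 2.99 FPKM in control and 1.08, 0.952 and 0.724 FPKM in heat, a 3.38-fold fall. In srsf5a the control libraries were scattered, at 4.88, 3.68 and 6.46 FPKM. Its heat libraries were tight, at 0.996, 1.09 and 1.12 FPKM from 40, 33 and 33 counts, and the fall was 4.56-fold. The summed SRSF5 level went from 17.2 ± 1.89 FPKM in control to 3.64 ± 0.0442 FPKM in heat (SD, n = 3), or 21.2% of control. Among the sums by protein this was the lowest share of the control level, but SRSF2 was close at 22.1%. The SRSF2 heat libraries spread from 2.71 to 4.79 FPKM, so these 2 proteins cannot be ranked.

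**Figure D2:**
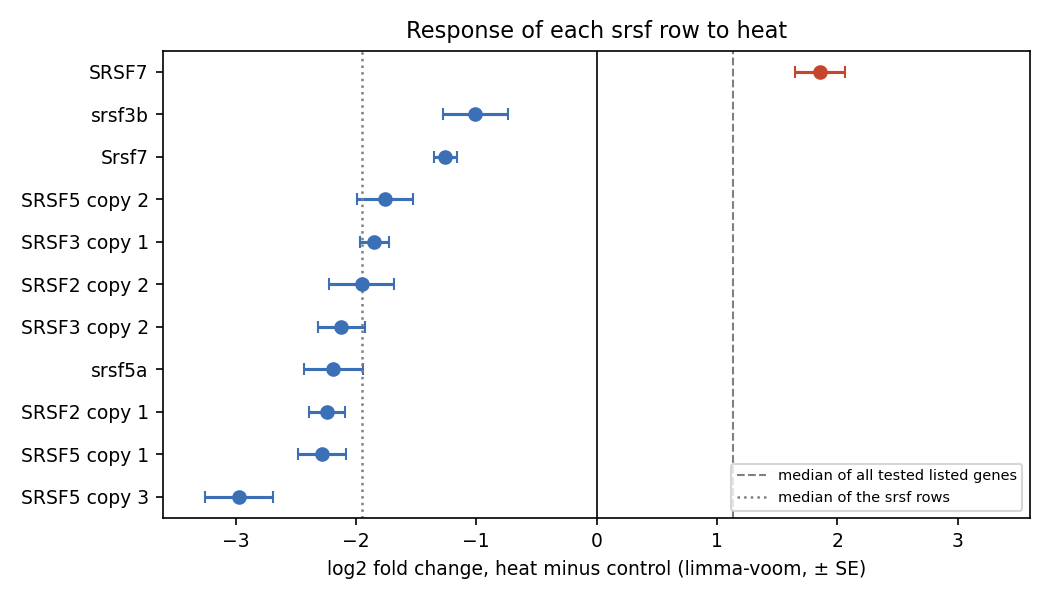
Log2 fold change of each srsf row, heat minus control, from limma-voom with the standard error as a bar, with dashed and dotted lines at the medians of all tested listed genes and of the srsf rows. The rows run from -2.97 for SRSF5 copy 3 to 1.86 for SRSF7, the only row to the right of 0.

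The SRSF7 pair went opposite ways. SRSF7 has, besides the features of SRSF3, a zinc knuckle that takes part in RNA binding. The row spelled Srsf7 had 19.4, 18.4 and 19.9 FPKM in control and 8.60, 8.06 and 7.88 FPKM in heat, and the libraries of each group lay close together. It fell 2.39-fold, a log2 fold change of -1.26 ± 0.09 (SE, limma-voom adjusted p = 2.99e-17). The row spelled SRSF7 had 3.79, 2.18 and 3.003 FPKM in control, from 58, 33 and 47 counts, and 9.60, 10.8 and 11.9 FPKM in heat, from 228, 195 and 206 counts. It rose 3.62-fold, a log2 fold change of 1.86 ± 0.21 (SE, limma-voom adjusted p = 2.09e-11). When the libraries were instead scaled by the median of ratios over the listed genes, this rise was 1.95-fold. It still passed the test, among 1733 rises that did, where the main scaling gave 2770. The median log2 fold change of all tested genes then moved by -0.89. The listed genes were all selected as changed, so this scaling has no unchanged genes to rest on.

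The ratio of the 2 rows within a library does not depend on library totals. The log2 ratio of Srsf7 over SRSF7 was 2.35, 3.08 and 2.73 in control and -0.16, -0.43 and -0.59 in heat. In FPKM, Srsf7 was thus the higher row in all 3 control libraries and the lower row in all 3 heat libraries. In counts, which are not divided by gene length, Srsf7 was the higher row in heat too, with 413, 299 and 286 against 228, 195 and 206. The crossing of the 2 rows therefore rests on the length scaling of FPKM. The mean ratio of FPKM moved by -3.11 on the log2 scale, an 8.64-fold shift between the rows, and the ratio of counts by -3.145. The FPKM shift lay between -3.29 and -2.93 when any single library was left out. Both rows had been selected as changed, in opposite directions. A shift of their ratio and of their shares, with separate groups, could therefore be expected before this comparison. The SRSF7 row made up 13.4% ± 2.88 of the pair's summed level in control and 56.7% ± 3.72 in heat (SD, n = 3 per group, exact permutation test, two-sided, p = 0.1, the smallest possible).

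Under the main scaling the pair's summed level went from 22.2 ± 1.45 FPKM in control to 19.0 ± 0.774 FPKM in heat (SD, n = 3). In single libraries the sum was 23.2, 20.6 and 22.9 FPKM in control and 18.2, 18.9 and 19.7 FPKM in heat. The groups did not overlap, but control replicate 2 and heat replicate 3 came within 1 FPKM of each other, and the heat level was 85.2% of control (exact permutation test, two-sided, p = 0.1). This value depended on the scaling, and was 45.8% with median-of-ratios scaling and 51.2% with the sum of listed counts as library size, both tried on the sums after the data were seen. Both use only listed genes, all selected as changed, whereas the main totals were recovered from count and FPKM. On those totals a level is a share of its library, and the listed genes filled a larger share of the heat libraries. How far this moved the main values was not tested. Per kilobase lengths implied by count and FPKM put the SRSF7 row at 0.941 and Srsf7 at 1.96 times the length of SRSF3 copy 1, so the rows were counted over gene models of different length. Where copies are alike in sequence, the counting may have divided shared reads among rows, which makes the values of single rows uncertain.

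**Figure D3:**
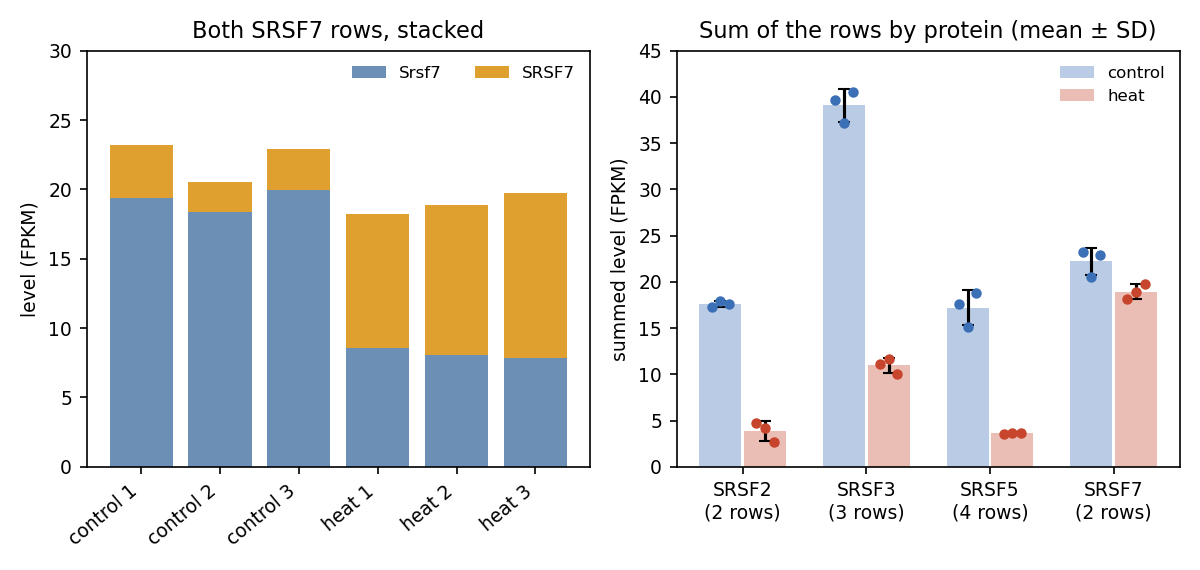
Left, stacked bars give the level in FPKM of the Srsf7 and SRSF7 rows in each library, and right, bars give the mean summed level in FPKM by protein with SD and 1 point per library. Within the pair the share of the SRSF7 row goes from 13.4% to 56.7%, and under the scaling plotted the pair's sum stands at 85.2% of control (45.8% with median-of-ratios scaling) and the sums for SRSF2, SRSF3 and SRSF5 at 21.2% to 28.1% (11.4% to 15.1%).

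Copies of the other symbols moved the same way, and their ratios shifted less. In all, 6 pairs that share a symbol were compared by their log2 ratio in each library, and no pair could pass a threshold of 0.05 at this size (exact permutation tests, two-sided, Benjamini-Hochberg adjusted p between 0.15 and 0.5). The ratio of SRSF5 copy 2 over SRSF5 copy 3 rose from 0.297 ± 0.141 to 1.497 ± 0.241 on the log2 scale (SD, n = 3), with groups that did not overlap, as copy 3 lost more of its level. The ratio of SRSF3 copy 1 over SRSF3 copy 2 went from 1.56 ± 0.05 to 1.85 ± 0.11, again with separate groups. On log2(FPKM + 1), which compresses low levels, the first of these shifts was 0.312 in place of 1.2003 and the second 0.001 in place of 0.291. The ratio of SRSF2 copy 1 over SRSF2 copy 2 was 1.96 ± 0.17 in control and 1.73 ± 0.42 in heat, with overlapping groups.

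The order of levels differed between the groups. In control liver SRSF3 copy 1 stood highest at 27.1 ± 1.64 FPKM, followed by Srsf7 at 19.2 ± 0.784, SRSF2 copy 1 at 14.0 ± 0.417 and SRSF3 copy 2 at 9.20 ± 0.257 FPKM (SD, n = 3), and the libraries of these rows did not overlap. Below them SRSF5 copy 1 and srsf5a overlapped, and most neighbours down to SRSF5 copy 3, the lowest at 2.57 ± 0.216 FPKM, did not differ beyond their spread. In heat SRSF7 stood highest at 10.8 ± 1.14 FPKM, having been ranked 9 of 11 in control. Its counts, though, were below those of Srsf7 in every heat library. In FPKM, SRSF7 was followed by Srsf7 at 8.18 ± 0.377 and SRSF3 copy 1 at 7.52 ± 0.221 FPKM, without overlap between the 3 rows. SRSF2 copy 1 and SRSF3 copy 2 came next and overlapped, and SRSF5 copy 3 was again the lowest, at 0.324 ± 0.0574 FPKM.

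Summed over all 11 rows, the srsf level was 97.7, 90.8 and 99.9 FPKM in control and 37.8, 38.4 and 36.2 FPKM in heat. This sum and those by protein hold only rows selected as changed, without sfrs3 or any SR gene outside the list. They do not give the total SR level of the liver. The groups were well apart, as could be expected of rows so selected, and the heat level of the 11 rows was 39.0% of control (exact permutation test, two-sided, p = 0.1). With median-of-ratios scaling it was 20.9% and with the sum of listed counts 23.4%, and the sums for SRSF2, SRSF3 and SRSF5 were then 11.4% to 16.9% of control. Shares of the sum within a library do not change with the scaling. The pair for SRSF7 held 23.1% ± 0.568 of this sum in control and 50.6% ± 3.37 in heat (SD, n = 3). The share of SRSF3 went from 40.7% ± 0.201 to 29.3% ± 1.31, that of SRSF2 from 18.4% ± 1.24 to 10.3% ± 2.65, and that of SRSF5 from 17.9% ± 1.11 to 9.72% ± 0.397. Heat replicate 3 had the lowest heat level in 8 of the 11 rows and the highest in the other three, SRSF5 copy 1, srsf5a and SRSF7.

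Patterns over the 6 libraries were compared by Pearson's r of log2(FPKM + 0.1) with tested, named genes of at least 1 FPKM on average, as a description in which the difference between the groups sets most of r. The closest genes to SRSF2 copy 1 were rrm2, a subunit of ribonucleotide reductase, h3f3d and mrpl57 (r of 0.999 for each). The closest to SRSF3 copy 1 were atp5mc3b, PIK3R1 and hprt1 (r = 0.999 for each), and Srsf7 ranked 6 among its neighbours. For SRSF5 copy 1 the closest were fads2, cirbp-b and ABHD5 (r between 0.997 and 0.998). For the SRSF7 row, the closest was xab2, a spliceosome component, at r = 0.999, followed by Nploc4 and a CABLES1 row. Among the 10 srsf rows that fell, r lay between 0.807, for srsf3b with SRSF5 copy 1, and 0.999, for SRSF2 copy 1 with SRSF5 copy 2.

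Other RNA-processing genes of the table were described by 6 lists of symbols. Of 65 tested rows, 28 fell and 37 rose, so 43.1% fell, close to the 41.9% of all tested genes. Under median-of-ratios scaling 28 fell and 18 rose, and with the sum of listed counts 28 fell and 27 rose. Over all tested genes these scalings also took away rises, with 1996 falls and 1733 rises under the first and 1996 falls and 2207 rises under the second. The core spliceosome list, which also counts mRNA export genes such as Ddx39a and alyref, was the list with the most falls. There 13 of 16 tested rows fell and 3 rose, with a median log2 fold change of -1.10. The rows that fell included SNRPD2 and SNRPG, Sm proteins of the ring at the core of the snRNPs. SNRPD2 went from 25.2 ± 1.16 to 8.92 ± 0.407 FPKM, a 2.82-fold fall, SNRPG fell 2.197-fold and the export helicase Ddx39a fell 2.06-fold. The rows that rose were prpf18, a second-step splicing factor, up 3.48-fold, xab2, up 2.70-fold, and alyref, an export adaptor, up 2.10-fold, while alyref-a fell 2.01-fold (limma-voom adjusted p under 0.05 for each). Of these 3 rises, the smallest of which was that of alyref, 2 passed under median-of-ratios scaling and 2 with the sum of listed counts.

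The lists closest to SR proteins by function gave few rows. In the list of other RS-domain proteins, which leaves out RBM39 (described below), 3 of 3 tested rows rose, in a table where 58.1% of all tested genes did. They were Son, a scaffold of nuclear speckles, up 2.21-fold, and 2 rows of the SCAF4 gene, up 2.91-fold and 2.19-fold. Under median-of-ratios scaling none of these 3 rises passed the test, and 1 did with the sum of the listed counts as library size. In the list of SR kinases and carriers 2 fell and 3 rose. This list also counts 2 rows of Tnpo2, another transportin, which is not named here as a carrier of SR proteins. Clk2, a kinase of the RS domain, went from 1.45 ± 0.169 to 0.605 ± 0.237 FPKM, a 3.01-fold fall, and Dyrk1a fell 2.57-fold. TNPO3, the nuclear import receptor of SR proteins, rose from 0.509 ± 0.0872 to 1.23 ± 0.128 FPKM. The 2 rows of Tnpo2 rose 2.49-fold and 2.02-fold. Only 1 rise of this list passed under median-of-ratios scaling.

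The hnRNPs are RNA-binding proteins that often act against SR proteins at exons. In their list 5 of 6 tested rows rose, where 58.1% of all tested genes rose and 6 rows are few. The list was matched by symbol and need not hold every hnRNP. The related row rbmx, placed among the other nuclear RNA-binding proteins, fell 2.24-fold. The 2 rows of PTBP1, a repressor of exon inclusion, rose 3.38-fold and 2.31-fold, the more strongly rising from 4.40 ± 0.444 to 14.8 ± 0.786 FPKM. The 2 rows of SYNCRIP rose 5.47-fold and 3.05-fold, hnrnph3 rose 3.34-fold, and HNRNPA0 fell 2.50-fold. Of the other nuclear RNA-binding proteins, 11 fell and 12 rose, and 4 of the rises passed under median-of-ratios scaling and 7 with the sum of listed counts. KHDRBS1, also called Sam68, fell 2.77-fold and 2.25-fold in its more abundant rows, and a scarce row rose 2.90-fold. RBM39, an RS-domain protein related to U2AF, rose 4.48-fold, an Ewsr1 row fell 3.49-fold and tial1 rose 2.07-fold.

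Of the genes of nonsense-mediated decay, mRNA turnover and translation termination, 11 of 12 tested rows rose, against 58.1% of all tested genes. The termination factor Gspt1 rose 2.74-fold and 2.01-fold in its 2 rows, the poly(A)-binding protein genes pabpc1b and PABPC4 rose 2.44-fold and 2.04-fold, and an EXOSC2 row, a subunit of the RNA exosome, rose 2.83-fold. The other EXOSC2 row fell 2.01-fold. The list held no UPF or SMG gene, so the listed members were general factors of mRNA turnover and termination, and 6 of the rises passed under median-of-ratios scaling.

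**Figure D4:**
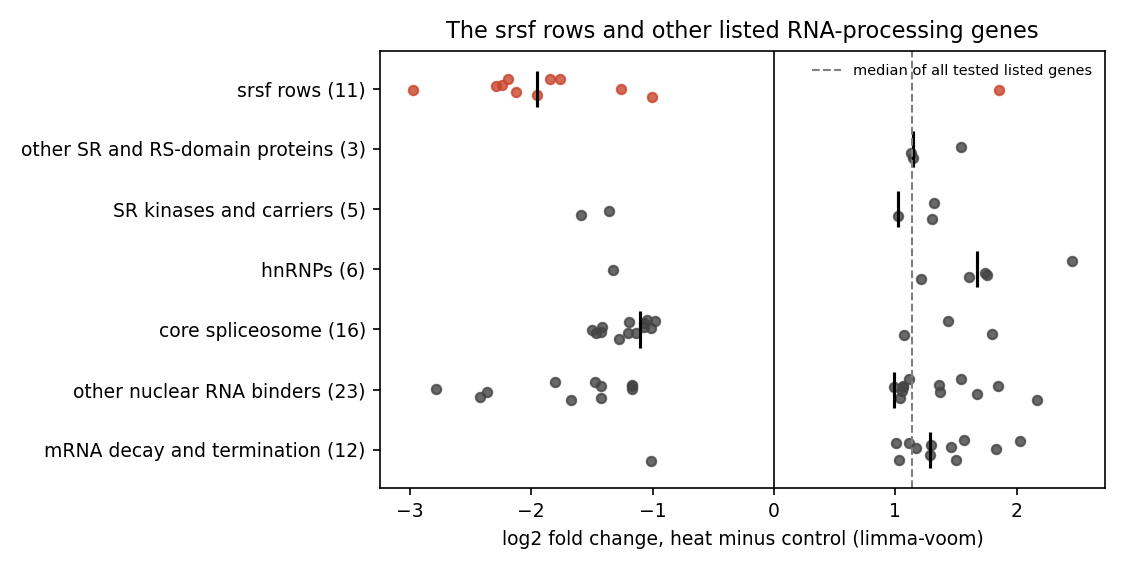
Log2 fold change, heat minus control, from limma-voom for the srsf rows and the tested rows of 6 lists of RNA-processing genes, with 1 point per row (vertical position within a list is jitter), a bar at each median, the number of rows in brackets and a dashed line at the median of all tested listed genes. The srsf rows have a median of -1.95 and the core spliceosome list, with its export genes, of -1.10, and the medians of the other lists lie above 0. Few listed rows lie near 0, so a median above it can hang on a single row. SR kinases and carriers had 2 falls and 3 rises, and the other nuclear RNA binders had 11 falls and 12 rises.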

How the data were processed

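Total RNA of rainbow trout liver was sequenced in 3 control and 3 heat libraries. The deposited table gives read counts, FPKM values and the authors' group means, log2 fold changes, p-values and adjusted p per gene, per the file headers. Per the submitters' processing notes, Bowtie2 2.2.8 and StringTie were used. Build, annotation and the authors' test: not given in the sources used here. The table is fixed-width text of 8 characters per column, which truncates identifiers, so copies are told apart only by their values. The 822 lines of wrapped text were left out.

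Counts were analysed with limma-voom (limma 3.58.1, R 4.3.3). Library totals came from the ratio of count to FPKM over the 451 genes that reached 200 counts and 5 FPKM in every library. Testing was limited to the 4766 genes reaching 10 counts in any 3 libraries, with Benjamini-Hochberg adjustment over them. The fit was tested on simulated data in which most genes did not change and the library totals were known. Both differ from the listed genes, so that test does not bear on the choice of scaling. Exact permutation tests used scipy 1.17.1 (Python 3.11.15). Rows and lists were chosen with earlier results of these data known. In each list, the 5 rows with the smallest p were named. Other rows named there (alyref, alyref-a, HNRNPA0, rbmx, the scarce KHDRBS1 row and the lower EXOSC2 row) were chosen after their values were seen. In marker lists the most abundant row was named, and rbp4 and ZAP70 were added after their values were seen. For likeness the 3 closest genes of selected rows were named. List entries of 6 wrong symbol matches were removed by hand. RefSeq (USDA_OmykA_1.1) held 2 of the srsf symbols, srsf3b and srsf5a.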

Additional observations from a re-analysis of the deposited data

How the results depend on the processing

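All 11 srsf rows kept their direction and passed the test under each alternative run. The runs used median-of-ratios scaling, the sum of listed counts as library size, no count filter, log2(FPKM + 0.1) or log2(FPKM + 1). Others added a replicate block or left out each library in turn. Every tested gene passed in the main fit, with 1996 falls and 2770 rises among 4766. Leaving out single libraries kept 1990 to 1996 falls and 2763 to 2769 rises over all tested genes. Passing again therefore says little about the srsf rows in particular. Only the 2 scalings took away many rises. Over all tested genes 1733 rises passed with median-of-ratios scaling and 2207 with the sum of listed counts. That of SRSF7 was among them, which again says little about this row in particular. Median-of-ratios scaling moved the median log2 fold change by -0.89 and the sum of listed counts by -0.73, which made the falls larger and the SRSF7 rise smaller, at 0.96 and 1.12. These 2 scalings rest on the listed genes alone, all selected as changed, and have no unchanged genes as a reference. The main scaling has a limit too, as the listed genes filled a larger share of the heat libraries than of the control libraries. Of all calls, 46.5% were rises under median-of-ratios scaling and 58.1% before, with 1733 rises in place of 2770. Its rises were 0 for the other RS-domain proteins, 1 for kinases and carriers, 4 for other nuclear RNA binders, 6 for decay genes and 18 over all lists, and with the sum of listed counts 1 for the other RS-domain proteins and 7 for other nuclear RNA binders. Counts of falls in the lists were the same under both. The difference between SRSF5 copy 1 and SRSF5 copy 3 reversed to -0.24 with log2(FPKM + 1), which compresses the heat levels below 1 FPKM. The summed level of all srsf rows moved from -1.36 on the log2 scale to -2.25 with median-of-ratios scaling and -2.09 with the sum of listed counts, and that of the SRSF7 pair from -0.23 to -1.13 and -0.96, alternatives chosen after seeing the data. With the replicate number as a block, SRSF7 had a log2 fold change of 1.83 and srsf3b of -0.97. The deviations of same-numbered libraries correlated at -0.01 to 0.03, which gives no sign that the numbers pair the libraries. Low counts limit SRSF2 copy 2 and SRSF5 copy 3, whose heat libraries hold 14 to 54 reads. They also limit srsf3b, SRSF5 copy 2 and srsf5a, with 21 to 51 reads in heat.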

Other observations

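The ratio of count to FPKM, divided by the library total, gives the gene length that the authors' values imply in each library. Within 10 of the 11 srsf rows it varied by at most 2.53% between libraries. In Srsf7 it varied by 10.03%, from 0.961 of its median in control replicate 3 to 1.06 in control replicate 2, and the groups overlapped. Among 1007 listed genes with at least 100 counts and 1 FPKM in every library, the median variation was 0.117%, and 3.18% varied as much as Srsf7 or more.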
